A study of Mus musculus with 6 samples.

Results

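The aryl hydrocarbon receptor axis was examined in differentiating mouse muscle cells that lacked *Hnrnpa2b1*, an RNA-binding protein of the nucleus. It was taken as 7 genes, namely *Ahr*, *Arnt*, *Ahrr*, *Cyp1a1*, *Cyp1b1*, *Nqo1* and *Tiparp*, found by symbol among the 46078 genes of the count table. The set was chosen by the measured counts of *Cyp1b1*, which in these same libraries were about 7 times higher in KO than in WT cells. The *Cyp1b1* values are therefore given as a description with no test, and the question was whether the other 6 genes moved with it.

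RNA was sequenced from 6 libraries of C2C12 cells, an immortalized mouse myoblast line that fuses into myotubes when serum is withdrawn. The 3 KO libraries (KO1, KO2 and KO3) carried the *Hnrnpa2b1* knockout and the 3 WT libraries (WT1, WT2 and WT3) did not, and cells of both genotypes had differentiated for 2 days after serum was withdrawn and ITS supplement added. KO cells were made with CRISPR-Cas9, a plasmid carrying one guide RNA and puromycin selection, and 3 independent clones of each genotype were isolated with cloning rings. The sources do not say which clone gave which library, so whether the spread between the 3 libraries of a genotype is a spread between clones is not known. No receptor ligand is named in the labels.

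Ahr is a ligand-activated transcription factor of the bHLH-PAS family, held in the cytoplasm by Hsp90 and its co-chaperones until a ligand such as dioxin, a polycyclic hydrocarbon or a tryptophan metabolite binds. It then enters the nucleus, pairs with Arnt and binds a short DNA element, and *Cyp1a1*, *Cyp1b1*, *Ahrr* and *Tiparp* are its classical targets. Ahrr and Tiparp feed back on the receptor, and *Nqo1* is shared with Nrf2, the transcription factor of the antioxidant response.

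The libraries held between 33605258 and 40558740 counts, and a limit of 3 counts, used here as the least a library can show, lay at 0.0687 to 0.0914 CPM (counts scaled to the size of the library). *Hnrnpa2b1* itself was at 159, 195 and 249 CPM in KO1, KO2 and KO3 and at 225, 229 and 252 CPM in WT1, WT2 and WT3. Its log2 fold change was -0.23 (SE 0.18, adjusted p = 0.381 by edgeR's quasi-likelihood test), so its RNA level did not check the genotype labels, and the methods describe a check of the protein in the clones by immunofluorescence and Western blot. Across genes, KO libraries correlated with each other at a Pearson's r of 0.961 to 0.975 (log2 CPM), and WT libraries at 0.982 to 0.990. Muscle markers were abundant in every library: 9 of them summed to 3021 to 6714 TPM (a level corrected for transcript length) in KO and 4348 to 5772 TPM in WT, with KO1 the highest of the 6 libraries. Of the 9, *Actn2* fell (7.93 to 13.2 TPM in KO and 63.6 to 103 TPM in WT, log2 fold change -2.94, adjusted p = 0.00212 by edgeR) and *Myod1* rose (56.3 to 93.5 against 32.7 to 47.8 TPM, 0.99, adjusted p = 0.0141), with a median log2 fold change of -0.34. The part of these muscle gene changes, and of the poorer myotube formation reported for KO cells, in the results below was not tested.

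The promoters of the target genes are shown because the receptor acts through the DNA element that holds the core letters GCGTG. The 250 bases before the RefSeq start of each gene were taken on build GRCm38.p6 for 6 of the 7 members, with no entry found for *Ahr*. Distances below are counted from that start, which can differ from the start of the gene span given further on. The end of the *Tiparp* window lies inside its span. The windows of *Cyp1b1* and of the targets *Cyp1a1*, *Ahrr*, *Tiparp* and *Nqo1* are printed 5′ to 3′ on the gene's own strand. Capitals mark GCGTG on either strand. *Cyp1b1* lies on the minus strand (chr17:79715062-79715311), *Cyp1a1* on the plus strand (chr9:57697363-57697612), *Ahrr* on the minus strand (chr13:74292332-74292581), *Tiparp* on the plus strand (chr3:65528197-65528446) and *Nqo1* on the minus strand (chr8:107403206-107403455).
Cyp1b1: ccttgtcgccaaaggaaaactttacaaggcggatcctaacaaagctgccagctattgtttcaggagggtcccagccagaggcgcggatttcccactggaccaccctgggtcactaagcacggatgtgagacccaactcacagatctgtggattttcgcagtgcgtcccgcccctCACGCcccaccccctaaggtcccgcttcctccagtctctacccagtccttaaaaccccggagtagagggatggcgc
Cyp1a1: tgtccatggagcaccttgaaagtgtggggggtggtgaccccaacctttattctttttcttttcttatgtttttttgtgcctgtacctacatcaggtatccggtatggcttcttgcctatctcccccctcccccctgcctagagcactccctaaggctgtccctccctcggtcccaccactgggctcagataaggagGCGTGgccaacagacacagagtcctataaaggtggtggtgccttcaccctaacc
Ahrr: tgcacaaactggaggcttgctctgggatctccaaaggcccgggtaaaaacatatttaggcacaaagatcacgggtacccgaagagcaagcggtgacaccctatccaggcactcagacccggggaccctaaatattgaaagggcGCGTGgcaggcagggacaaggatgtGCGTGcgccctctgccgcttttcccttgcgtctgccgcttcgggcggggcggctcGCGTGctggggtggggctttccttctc
Tiparp: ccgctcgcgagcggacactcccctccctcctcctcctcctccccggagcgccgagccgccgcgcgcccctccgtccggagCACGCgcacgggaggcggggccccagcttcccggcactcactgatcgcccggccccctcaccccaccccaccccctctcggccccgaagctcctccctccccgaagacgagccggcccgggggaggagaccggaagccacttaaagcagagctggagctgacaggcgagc
Nqo1: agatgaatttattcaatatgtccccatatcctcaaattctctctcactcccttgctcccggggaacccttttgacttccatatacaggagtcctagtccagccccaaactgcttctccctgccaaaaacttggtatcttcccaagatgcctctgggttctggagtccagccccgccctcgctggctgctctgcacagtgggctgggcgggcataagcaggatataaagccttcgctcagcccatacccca

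GCGTG on either strand was found in 5 of the 6 windows, whereas 28.2% of 32851 mouse promoter windows of the same length held it. *Cyp1b1* had 1 match that began 76 bases before the start, *Cyp1a1* had 1 at 54 bases, *Tiparp* 1 at 170 bases and *Arnt* 1 at 29 bases. *Ahrr* had 3 matches, at 107, 82 and 27 bases, and *Nqo1* had 0. The longer form TNGCGTG, which contains GCGTG and was also searched on both strands, was in 1 of the 6 windows (*Ahrr*) and in 4.1% of all windows. TGACNNNGC, the core of the antioxidant response element bound by Nrf2, was in the *Arnt* window alone among the 6 and in 10.2% of all windows. These matches describe the letters in these windows, which leave out more distant elements.

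*Cyp1b1* (ENSMUSG00000024087, chr17:79706953-79715041, minus strand) encodes a cytochrome P450 that oxidizes estrogens, retinoids and polycyclic hydrocarbons. It was at 89.3, 122 and 128 CPM in KO1, KO2 and KO3 and at 17.6, 17.2 and 15.6 CPM in WT1, WT2 and WT3. Each KO library stood far above each WT library, and KO1 was the lowest of the KO libraries. The mean was 113 ± 20.9 CPM in KO and 16.8 ± 1.06 CPM in WT (SD, n = 3 each), a ratio of 6.75.

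The log2 fold change of *Cyp1b1* was 2.75 (SE 0.17), and 1.58% of the 14828 tested genes had a larger one. By the length-corrected measure it was at 10.5, 15.2 and 19.02 TPM in KO and at 2.30, 2.29 and 1.91 TPM in WT, so the order of KO2 and KO3 over KO1 was the same on both measures. Genes around it on chromosome 17 were also somewhat higher in KO. The median log2 fold change of 48 other tested genes in its 10 Mb window (70 to 80 Mb) was 0.32, against 0.04 for the whole chromosome. With the window median subtracted, the *Cyp1b1* difference was 2.42.

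*Cyp1a1* (ENSMUSG00000032315, chr9:57697613-57703822, plus strand), the gene most often used as a readout of receptor activity, had 0 counts in all 6 libraries. Up to 3 counts per library remain possible at this depth, so no difference was detectable. Its relative *Cyp1a2*, an inducible P450 of liver, also had 0 counts in every library. Thus *Cyp1b1* was the only member of the P450 family 1 with a measurable transcript in these cells.

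*Ahr* (ENSMUSG00000019256, chr12:35497974-35535038, minus strand) was at 67.7, 32.2 and 38.1 CPM in KO1, KO2 and KO3 and at 19.2, 17.2 and 22.1 CPM in WT1, WT2 and WT3. The groups did not overlap, and KO1 was well above the other KO libraries. *Ahr* rose from 19.5 ± 2.46 to 46.0 ± 18.98 CPM (SD, n = 3 each), a ratio of 2.36. The log2 fold change was 1.24 (SE 0.28, 95% confidence interval 0.60 to 1.88, adjusted p = 0.0188 by edgeR). In TPM, *Ahr* was at 7.80, 3.88 and 5.72 in KO and at 2.65, 2.37 and 2.74 in WT, a difference of 0.88 on the log2(TPM + 1) scale (SE 0.21, adjusted p = 0.0226 by limma).

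The *Ahr* difference was smaller once its surroundings were subtracted. The 482 other tested genes of chromosome 12 had a median log2 fold change of 0.39, and this median was at 0.41, 0.36 and 0.40 in KO1, KO2 and KO3. With it subtracted, the *Ahr* difference was 0.85 and the call was lost (adjusted p = 0.0611 by edgeR). With the median of its 10 Mb window subtracted it was 0.95 and the call was kept (adjusted p = 0.0462). The call was also lost when one WT library was left out, with adjusted p of 0.0839 without WT1, 0.0600 without WT2 and 0.0588 without WT3 by edgeR, while the log2 fold change was 1.22, 1.14 and 1.31. In TPM the call was lost without KO3 (adjusted p = 0.0542), WT1 (0.0950), WT2 (0.0644) or WT3 (0.0702) by limma.

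*Arnt* (ENSMUSG00000015522, chr3:95434388-95497240, plus strand), the partner that the receptor shares with the hypoxia-inducible factors, was at 61.5, 64.6 and 64.1 CPM in KO and at 78.5, 70.1 and 72.5 CPM in WT. Every KO library lay below every WT library, but the gap was small. The log2 fold change was -0.22 (SE 0.11, interval -0.47 to 0.04), which did not pass the test (adjusted p = 0.182 by edgeR). The exact two-sided permutation test gave p = 0.1, the smallest that 3 against 3 libraries allow. In TPM the groups overlapped, at 10.8 to 14.2 in KO and 12.7 to 14.4 in WT, and the difference of -0.15 did not pass either (adjusted p = 0.496 by limma).

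*Ahrr* (ENSMUSG00000021575, chr13:74211118-74292331, minus strand) encodes the receptor's repressor, which competes for Arnt, and is one of the genes the receptor induces. It had 1, 14 and 13 counts in KO1, KO2 and KO3 and 9, 4 and 12 counts in WT1, WT2 and WT3. Both groups were barely above the limit of 3 counts and they overlapped. The log2 fold change was -0.07 with an interval of -1.79 to 1.66 (adjusted p = 0.957 by edgeR), so changes of several fold in either direction were not detectable at this depth. The sign rested on single libraries, with 0.42 without KO1 and 0.20 without WT3, and was 0.08 with library totals in place of TMM factors.

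*Tiparp* (ENSMUSG00000034640, chr3:65528410-65555518, plus strand) encodes a mono-ADP-ribosyltransferase that is induced by the receptor and limits its activity. It was at 79.6, 70.4 and 60.6 CPM in KO and at 64.2, 48.6 and 54.7 CPM in WT. KO3 lay below WT1, so the groups overlapped. The log2 fold change was 0.33 (SE 0.15, interval -0.03 to 0.69, adjusted p = 0.155 by edgeR), and the exact two-sided permutation test gave p = 0.2. In TPM each KO library, at 10.9 to 11.7, was above each WT library, at 8.22 to 10.6, with a difference of 0.31 that did not pass (SE 0.15, adjusted p = 0.179 by limma).

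*Nqo1* (ENSMUSG00000003849, chr8:107388225-107403206, minus strand) encodes a quinone reductase that is induced through both the receptor and Nrf2. It had 260, 418 and 262 counts in KO1, KO2 and KO3 and 93, 39 and 89 counts in WT1, WT2 and WT3, equal to 7.28, 9.57 and 6.40 CPM against 2.69, 1.19 and 2.40 CPM. The groups did not overlap, KO2 was the highest library and WT2 the lowest. *Nqo1* rose 3.70-fold, from 2.09 ± 0.796 to 7.75 ± 1.64 CPM (SD, n = 3 each). The log2 fold change was 1.89 (SE 0.34, interval 1.09 to 2.68, adjusted p = 0.00956 by edgeR).

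In TPM, *Nqo1* was at 2.82, 3.92 and 3.20 in KO and at 1.16, 0.507 and 0.958 in WT. *Nqo1* differed by 1.21 on the log2(TPM + 1) scale (SE 0.18, adjusted p = 0.00391 by limma) and by 1.86 with a pseudocount of 0.1 (adjusted p = 0.00639 by limma). Its call held in all 14 alternative count analyses, where the log2 fold change was 1.60 to 2.10 and the largest adjusted p was 0.0403, and in all 9 alternative TPM analyses. Its neighbours moved little, with a median log2 fold change of 0.14 over 92 genes in its 10 Mb window (100 to 110 Mb).

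**Figure D1:**
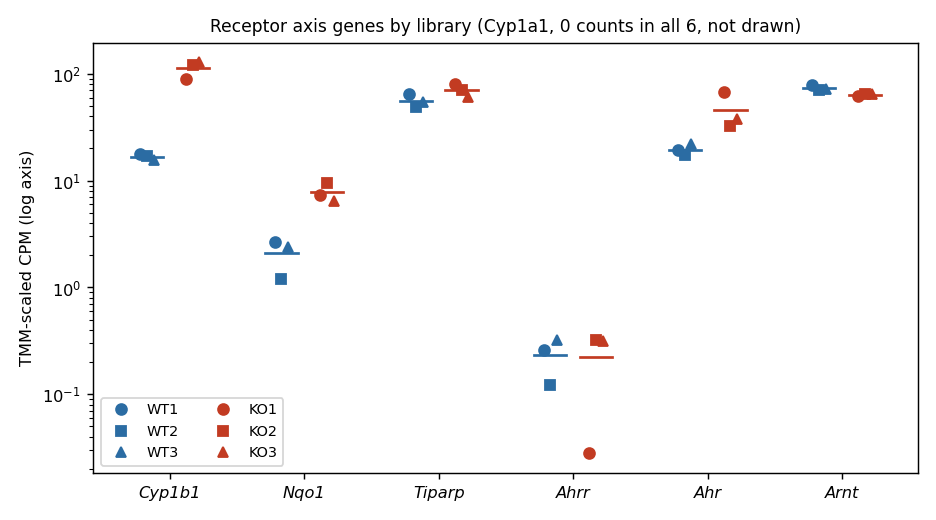
TMM-scaled CPM of 6 members on a log axis, with WT libraries in blue, KO libraries in red, one symbol per library number and a line at each group's mean. *Cyp1b1*, *Nqo1* and *Ahr* have KO libraries wholly above WT, *Tiparp* and *Ahrr* overlap, *Arnt* is slightly lower in KO, and the lone low point is the single *Ahrr* count of KO1.

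Of the 6 members other than *Cyp1b1*, 5 had enough counts to test, and 2 (*Ahr* and *Nqo1*) were called higher and 0 lower. Among all 14828 tested genes, 12.1% were called higher and 10.6% lower in KO. The same 2 members had KO libraries wholly above WT libraries in CPM, as did 22.7% of all tested genes. In TPM, 4 of the other members were abundant enough to test and 2 were called higher, where 8.59% of 11691 genes were. With 5 genes the count is too small to set against these shares with any precision. *Cyp1a1*, *Ahrr* and *Tiparp*, the 3 classical targets besides *Cyp1b1*, did not pass the test or could not be tested.

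**Figure D2:**
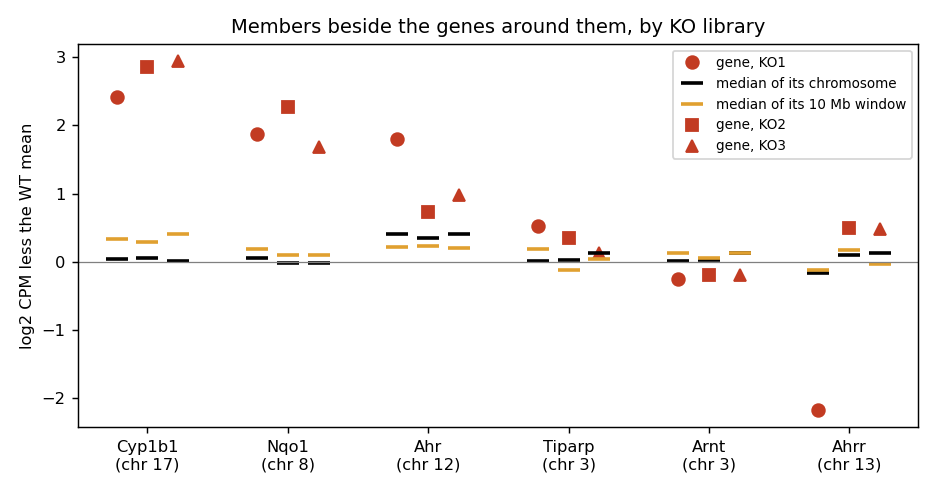
Log2 CPM of each member less its WT mean in KO1, KO2 and KO3 (red symbols), beside the median of the other tested genes of its chromosome (black bars) and of its 10 Mb window (yellow bars). The black bars stand at 0.36 to 0.41 for *Ahr* on chromosome 12, and the *Cyp1b1* and *Nqo1* points lie far above both bars.

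Levels per length put the members in a different order in the 2 genotypes. In WT cells *Arnt* was the highest at 13.6 ± 0.847 TPM, then *Tiparp* at 9.03 ± 1.37, *Ahr* at 2.59 ± 0.195, *Cyp1b1* at 2.17 ± 0.220, *Nqo1* at 0.875 ± 0.334 and *Ahrr* at 0.0325 ± 0.0133 TPM (SD, n = 3), with *Cyp1a1* at 0. Neighbours in this order did not overlap between libraries, although *Ahr* and *Cyp1b1* came within 0.1 TPM of each other (2.37 and 2.30 TPM in WT2 and WT1). In KO cells *Cyp1b1* had the highest mean at 14.9 ± 4.26 TPM, followed by *Arnt* at 12.2 ± 1.79 and *Tiparp* at 11.3 ± 0.412 TPM. The libraries of these 3 genes overlapped, so their order in KO was within the spread. *Ahr* at 5.80 ± 1.96 TPM and *Nqo1* at 3.31 ± 0.561 TPM also touched, because KO2 had 3.88 TPM of *Ahr* and 3.92 TPM of *Nqo1*.

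**Figure D3:**
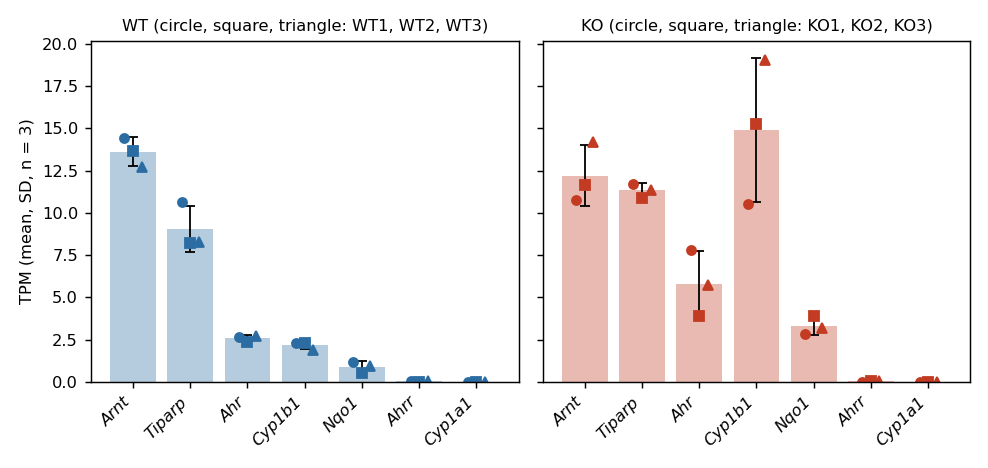
TPM of the 7 members in WT (left) and KO (right), with bars for the mean, error bars for the SD (n = 3) and one symbol per library. *Cyp1b1* goes from below *Ahr* in WT to the highest mean in KO, where it overlaps *Arnt* and *Tiparp*.

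The members also differed in which KO library was highest. *Ahr* peaked in KO1 at 67.7 CPM, *Nqo1* in KO2 at 9.57 CPM and *Cyp1b1* in KO3 at 128 CPM, and the KO library with the most *Ahr* had the least *Cyp1b1*.

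Genes with the pattern most like that of *Cyp1b1* were ranked by the root mean square difference of log2 CPM, each gene less its WT mean, over the 6 libraries. The nearest of 12765 named genes were *B3gnt9* (0.206), *Angpt1* (0.216), *Gstm2* (0.218), *Wisp2* (0.240) and *Pla2g7* (0.257). *Angpt1*, a secreted ligand of the Tek receptor, was at 79.8, 124 and 120 CPM in KO and at 13.5 to 19.6 CPM in WT. *Gstm2*, a glutathione S-transferase, was at 24.5, 50.2 and 43.6 CPM in KO and at 5.32, 4.75 and 5.69 CPM in WT. Among the members, *Nqo1* ranked 158 (0.716), *Ahr* 869 (1.22), *Tiparp* 3720 (1.73) and *Arnt* 8122 (2.09).

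Around the members, 8 lists of genes of the receptor's machinery and of neighbouring detoxification pathways were examined, 105 genes in all. Of the 86 tested, 22 (25.6%) were called higher and 11 (12.8%) lower, where 12.1% and 10.6% of all tested genes were, so the lower share was near that of all genes. These shares are the background for the counts of each list below, most of which rest on few genes. The lists were chosen with earlier results of these data known, so the 25.6% is a description and not a test of the lists. The 86 genes had a median log2 fold change of 0.13 against 0.03 for all tested genes. *Gsta2* and *Ephx2*, called higher, and *Sim1* and *Npas3*, called lower, passed the count filter only through the group where they were high. Their calls carry no weight beyond the counts given below, and how many such genes stand among all tested genes was not counted. The number called higher was 26 without KO1, 14 without KO2, 14 without KO3, 13 without WT2, 6 without WT3 and 4 without WT1. Over all tested genes it was 1796 in the main run and 2381, 1434, 1169, 1071, 616 and 460 in these runs, in the same order. The number called lower was 6 with library totals in place of TMM factors and 5 without WT1, WT2 or WT3. Over all tested genes it was 1565 in the main run, 1174 with library totals and 473, 1029 and 672 without WT1, WT2 and WT3. Calls for *Hsp90aa1*, *Cdkn1b*, *Pgd*, *Gstm2*, *Ccbl1* and *Ccbl2* held in all 14 alternatives. The *Sim1* call did too, but *Sim1* passed the count filter through WT alone, so this is not read as stability.

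The receptor's cytoplasmic complex and turnover list had 6 genes, all tested, of which 2 were called higher and 0 lower (median 0.11). *Hsp90aa1*, the inducible Hsp90 that holds the receptor ready for ligand, was at 574, 603 and 654 CPM in KO and at 300.2, 336 and 304 CPM in WT. The groups were well apart, and it rose by 0.96 on the log2 scale (SE 0.14, adjusted p = 0.00519 by edgeR). It lies on chromosome 12, as *Ahr* does, and with that chromosome's median subtracted the difference was 0.57 (adjusted p = 0.0280). *Src*, a kinase found with the receptor complex, rose by 0.62 (adjusted p = 0.0268), a call lost without KO2, KO3, WT1 or WT3 and with the chromosome median subtracted (adjusted p 0.0559 to 0.123). The co-chaperone *Ptges3* (p23, -0.19), the constitutive *Hsp90ab1* (0.22) and the ubiquitin ligase scaffold *Cul4b* (0.01) did not pass.

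Among 13 bHLH-PAS relatives of the receptor, 8 were tested, 1 was called higher and 3 lower (median 0.15). *Sim2*, which encodes a transcriptional repressor, fell by 0.78 on the log2 scale, from 39.7, 35.2 and 31.0 CPM in WT to 16.5, 23.9 and 21.1 CPM in KO (adjusted p = 0.0192 by edgeR). That call was lost without WT1 (adjusted p = 0.0887) or WT2 (0.0513). *Sim1* had 59, 24 and 75 counts in WT and 3, 0 and 0 counts in KO, and *Npas3* had 31, 61 and 51 counts in WT and 0, 5 and 8 counts in KO, with the *Npas3* call lost without WT3 (adjusted p = 0.0544 by edgeR). *Arntl2*, a clock factor, rose by 1.25 (adjusted p = 0.0477), a call lost in 8 of 14 alternatives, including without KO2, KO3, WT1, WT2 or WT3 (adjusted p 0.0535 to 0.171). *Hif1a*, the hypoxia-inducible partner of Arnt, was at 0.35 and did not pass (adjusted p = 0.154).

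Of 10 coregulators that the receptor recruits, all were tested, 2 were called higher and 0 lower (median -0.05). The histone acetyltransferase *Ep300* rose by 0.56 (adjusted p = 0.0240 by edgeR), a call lost without KO3, WT1, WT2 or WT3 (adjusted p 0.0543 to 0.111). The coactivator *Ncoa3* rose by 0.64 (adjusted p = 0.0303). With its 10 Mb window median subtracted, *Ncoa3* was at 0.09 (adjusted p = 0.723), and its call was also lost without KO3, WT1, WT2 or WT3 (adjusted p 0.0650 to 0.132).

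Of 16 other receptor targets, 11 were tested, 4 were called higher and 1 lower, and the median was 0.34. *Aldh3a1*, an aldehyde dehydrogenase long used with *Cyp1a1* and *Nqo1* to define the receptor's target battery, was at 21.9, 57.7 and 14.5 CPM in KO and at 3.33, 2.50 and 5.77 CPM in WT. The groups did not overlap, and KO2 held far more than the other KO libraries. *Aldh3a1* rose by 3.02 on the log2 scale (SE 0.56, adjusted p = 0.0101 by edgeR; 0.0571 without WT1), and the value without KO2 was 2.23. *Xdh*, xanthine dehydrogenase, was at 8.79, 9.12 and 4.22 CPM in KO and at 1.16, 0.396 and 1.78 CPM in WT. This was a rise of 2.72 (SE 0.54, adjusted p = 0.0126 by edgeR, and 0.0633 without WT1). *Xdh* lies on chromosome 17, as *Cyp1b1* does, and with its 10 Mb window median subtracted the difference was 2.39 (adjusted p = 0.0205 by edgeR).

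*Hes1*, a Notch target that the receptor can also induce, rose by 0.97 (adjusted p = 0.0258 by edgeR), a call lost without KO2, KO3, WT1, WT2 or WT3 (adjusted p 0.0621 to 0.103). *Gsta2* had 12, 65 and 11 counts in KO and 1, 3 and 0 counts in WT, so its WT level was at or under the limit, and its call was lost without KO2, WT1 or WT3 (adjusted p 0.0675 to 0.120 by edgeR). Reads of *Gsta2* may be shared with *Gsta1*, a near-identical gene with 14, 22 and 10 counts in KO and 3, 2 and 4 counts in WT that was too low to test. *Cdkn1b* (p27), a cell cycle inhibitor, fell by 1.13, from 285, 177 and 239 CPM in WT to 99.8, 122 and 97.5 CPM in KO (adjusted p = 0.00812). *Nfe2l2*, which encodes Nrf2 and is itself a receptor target, was at 0.02 and did not pass.

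Of 23 genes of the Nrf2 pathway, all tested, 6 were called higher and 3 lower (median 0.16). *Pgd*, of the pentose phosphate pathway, was at 85.7, 113 and 85.9 CPM in KO and at 37.4, 35.5 and 41.5 CPM in WT, and rose by 1.32 (SE 0.15, adjusted p = 0.00235 by edgeR). *G6pdx*, the enzyme before it in that pathway, rose by 1.02, *Srxn1* (sulfiredoxin) by 0.94, *Gclm* (a subunit of the glutathione-making ligase) by 0.92, *Gstm1* by 1.39 and *Gsta4* by 0.78. The call of *Srxn1* was lost without WT1 or WT3, that of *Gclm* without WT2 or WT3 and that of *G6pdx* without KO3, WT1 or WT3 (adjusted p 0.0505 to 0.0925 by edgeR). The call of *Gsta4* was lost without any one WT library and that of *Gstm1* without KO2, KO3 or any one WT library (0.0623 to 0.136). Without KO2, *Gsta4* was at 0.47 and *Gstm1* at 0.97. *Mafg* (-0.48), *Bach1* (-0.64) and *Blvrb* (-0.73) fell, and each call was lost without any one WT library. The *Mafg* and *Bach1* calls were also lost without KO2, and those of *Mafg* and *Blvrb* without KO3 (adjusted p 0.0548 to 0.147 by edgeR in these runs). With library totals in place of TMM factors, all 3 of these calls were lost (adjusted p 0.0579 to 0.0939 by edgeR). *Hmox1*, *Gclc*, *Txnrd1* and *Slc7a11*, also well-known Nrf2 targets, were at 0.22, 0.03, -0.20 and -0.54 and did not pass.

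The list of P450 partners and conjugating enzymes had 10 tested genes of 12, of which 5 were called higher and 0 lower, and the highest median of the 8 lists (0.58). *Gstm2* rose by 2.91 (SE 0.28, adjusted p = 0.00132 by edgeR), although *Gstm1* and *Gstm2* are close paralogs whose reads may be shared. *Ephx2*, soluble epoxide hydrolase, had 30, 260 and 49 counts in KO and 3, 0 and 3 counts in WT, so its WT level was at the limit, and its call was lost without WT1 or WT3 (adjusted p = 0.0576 and 0.0539 by edgeR). *Gstt1* rose by 1.21, *Cyb5b* by 0.60 and *Ephx1*, the microsomal epoxide hydrolase, by 0.56, and each call was lost without KO2 or any one WT library, and for *Gstt1* and *Ephx1* without KO3 (adjusted p 0.0575 to 0.151). *Por*, the reductase that feeds electrons to every microsomal P450, was at 0.03 and did not pass.

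Of 11 enzymes that make or break down tryptophan-derived receptor ligands, 4 were tested, 0 were called higher and 2 lower (median -0.63). *Ccbl1* and *Ccbl2*, kynurenine aminotransferases, had log2 fold changes of -1.32 and -2.06, and both fell (adjusted p = 0.00227 and 0.00760 by edgeR). *Ccbl1* was at 8.73, 9.30 and 8.91 CPM in KO and at 22.5, 19.8 and 24.9 CPM in WT. *Ccbl2* was at 1.96, 4.15 and 2.27 CPM in KO and at 11.5, 8.41 and 15.1 CPM in WT, and neither gene overlapped between the groups. *Ido1* had at most 14 counts in any library, *Tdo2* at most 3 and *Kynu* at most 1.

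Among 14 genes of the PARP family, to which *Tiparp* belongs, 2 were called higher and 2 lower (median -0.09). The interferon-responsive *Parp9* rose by 1.30 and *Parp12* by 1.09 (adjusted p = 0.0161 and 0.0128 by edgeR). The call of *Parp9* was lost without WT1 and that of *Parp12* without WT1 or WT3 (adjusted p 0.0532 to 0.0701). *Tnks* fell by 0.51 and *Parp6* by 0.56, and each call was lost without KO2 or any one WT library, and for *Tnks* without KO3 (adjusted p 0.0622 to 0.127). With its 10 Mb window median subtracted, *Tnks* was at -0.19 and *Parp6* at -0.37, both without a call.

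Cytochrome P450 genes were taken as the 115 whose symbol held Cyp, a number, letters and a number, so P450 genes with other names were left out. Pseudogenes and the opposite-strand gene *Cyp4x1os* were among them. Within this set, *Cyp1b1* was one of few genes with any appreciable RNA. Of the 115, 32 had no count in any library, 79, these included, never exceeded 3 counts and 18 were tested. Besides *Cyp1b1*, 2 were called higher and 1 lower, which is near the 12.1% and 10.6% of all tested genes, and the median over all 18 was -0.02. *Cyp4f16* rose by 1.59 (adjusted p = 0.0159 by edgeR) from at most 1.59 CPM in WT to at least 2.91 CPM in KO. *Cyp2f2* had 15, 21 and 12 counts in KO and 2, 1 and 3 counts in WT, at the limit in WT. It passed the count filter through its KO libraries alone, so its call carries no weight beyond these counts. *Cyp2u1* fell by 1.24 (adjusted p = 0.0129). Each of these 3 calls was lost without WT1, and also without WT2 for *Cyp4f16* and *Cyp2f2* or without WT3 for *Cyp2u1* and *Cyp2f2* (adjusted p 0.0503 to 0.0801).

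**Figure D4:**
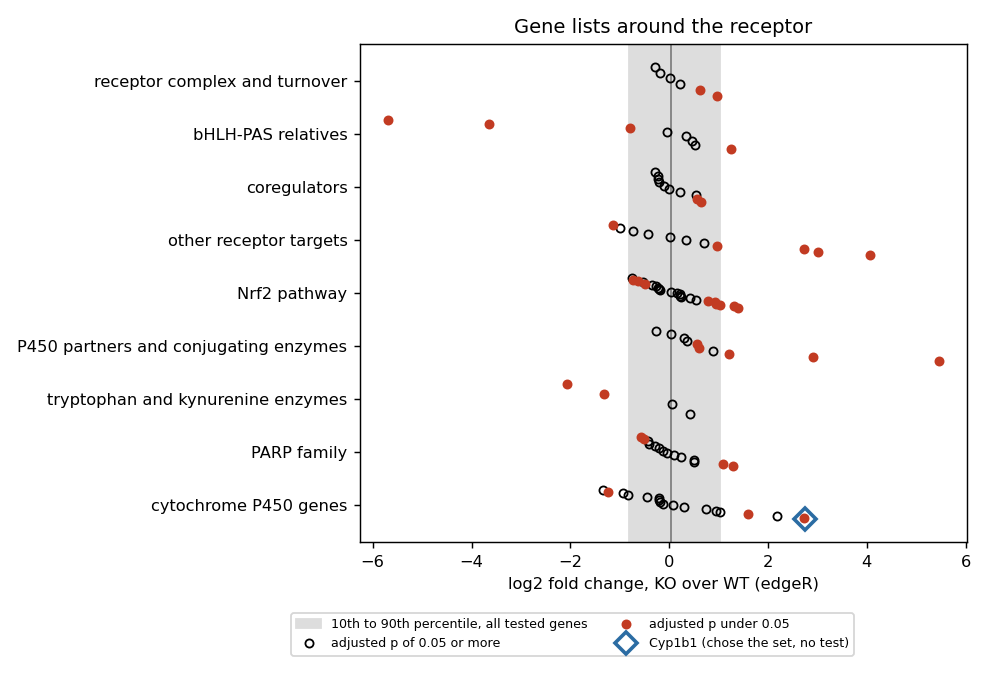
Log2 fold change (KO over WT, edgeR) of each tested gene of the 8 lists and of the cytochrome P450 genes, with red points for an adjusted p under 0.05, open points for the rest and the grey band for the 10th to 90th percentile of all tested genes. The open blue diamond is *Cyp1b1*, given with no test and drawn around the point of *Cyp2f2*, and the far left points are *Sim1* and *Npas3*, whose KO counts were 0 to 8.

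The 22 list genes called higher had their highest KO library in KO2 in 17 cases (77.3%), in KO3 in 5 cases (22.7%) and in KO1 in 0. The 17 include *Gsta2* and *Ephx2*, whose calls carry no weight, and the paralogs *Gstm1* and *Gstm2*, whose reads may be shared. Among all 1796 genes called higher, KO2 was the highest in 40.1%, KO3 in 38.4% and KO1 in 21.4%. *Nqo1*, *Aldh3a1* and *Xdh* were each highest in KO2, whereas *Ahr* was highest in KO1. These shares are a description, since the genes share libraries.

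**Figure D5:**
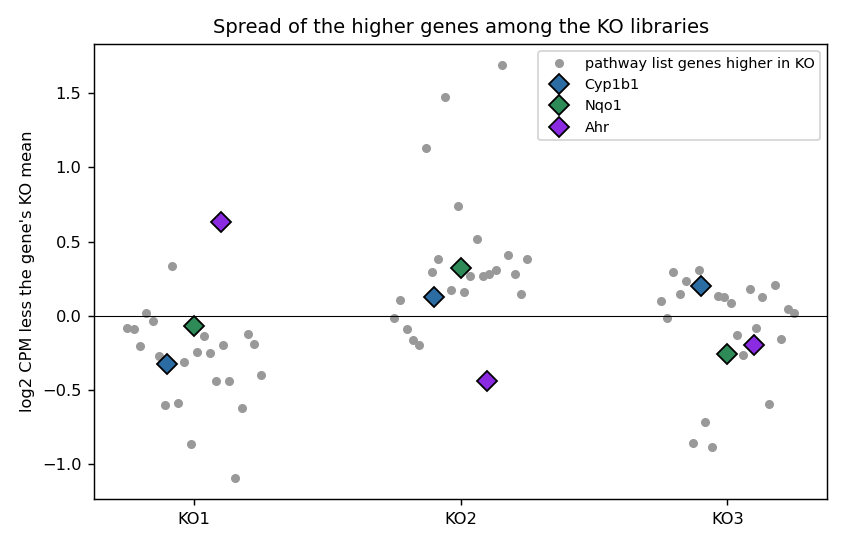
Log2 CPM of each list gene called higher, less its mean over the 3 KO libraries, in KO1, KO2 and KO3 (grey points), with *Cyp1b1*, *Nqo1* and *Ahr* as coloured diamonds. Most grey points are lowest in KO1 and highest in KO2, and the *Ahr* diamond is highest in KO1.

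Markers of other cell types were checked because *Cyp1b1*, *Ahr* and *Nqo1* are also expressed by stromal cells. Fibroblast markers moved with the genotype: 6 of them summed to 126 to 168 TPM in KO and 30.5 to 38.0 TPM in WT, and 3 of the 5 tested (*Cd34*, *Ly6a* and *Pdgfra*) were called higher and 0 lower. *Cd34* and *Ly6a*, which are also found on muscle progenitors, carried most of that sum in KO2. The defining matrix markers did not follow the genotype in every library, with *Col1a1* at 47.3, 4.86 and 59.4 TPM in KO1, KO2 and KO3 and 5.61, 6.79 and 11.8 TPM in WT, and *Lum* at most 0.677 TPM. The part of these transcripts in the *Cyp1b1*, *Ahr* and *Nqo1* differences was not tested, and in bulk RNA a change in the number of cells of a kind and a change in RNA per cell cannot be told apart.

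Of 5 hepatocyte markers, *Alb*, *Apoa1*, *Cyp3a11* and *Ttr* had no more than 3 counts in any library, and *Cyp2e1* had 31, 1 and 2 counts in KO1, KO2 and KO3 and 0 in each WT library. Osteoblast and chondrocyte markers summed to 29.8 TPM in KO1, the library with the most *Ahr*, and to 3.87 to 5.34 TPM in KO2 and KO3 and 3.68 to 4.96 TPM in WT. *Bglap* alone gave 26.0 TPM of the KO1 sum and did not pass the test (adjusted p = 0.0749 by edgeR). *Alpl*, also on this list, was called higher, at 1.88, 0.192 and 0.274 TPM in KO. It was at 0.188, 0 and 0.0134 TPM in WT1, WT2 and WT3, so its call carries no weight beyond these values. The part of these transcripts in the *Ahr* level of KO1 was not tested. Endothelial markers were at most 0.217 TPM in sum, with *Kdr* called lower (0.00558 to 0.0369 TPM in KO and 0.0761 to 0.126 TPM in WT). Macrophage markers summed to 1.30 to 2.14 TPM in KO and 1.01 to 1.27 TPM in WT, with *Adgre1* at 0. *Lyz2* among them was called higher, at most 0.380 TPM in KO and at 0, 0 and 0.0816 TPM in WT1, WT2 and WT3. The *Kdr* and *Lyz2* calls rest on levels near 0 and carry no weight beyond these values. Of 6 adipocyte markers, *Adipoq*, *Cfd*, *Fabp4* and *Plin1* had at most 3 counts, and *Cebpa* was called higher, at 1.38, 3.65 and 2.86 TPM in KO and 1.03 to 1.17 TPM in WT (adjusted p = 0.0323 by edgeR). The sixth, *Pparg*, was at 3.52 to 4.33 TPM in KO and 3.73 to 5.96 TPM in WT and did not pass (adjusted p = 0.622). The part of these transcripts in the members' differences was not tested.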

How the data were processed

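Total RNA was depleted of ribosomal RNA and sequenced in paired reads. The authors trimmed and aligned the reads with STAR and counted them per gene, and they deposited raw counts for 6 libraries, which were used as deposited. They also deposited TPM values from StringTie, with lengths corrected, and entries of one gene identifier were added up within a library. The submitters' processing notes name mm9 and the methods name GRCm39, but 99.8% of the gene spans in the table overlapped those of the same identifier on GRCm38, so gene coordinates are given as in the table. The counter's strand setting is not given in the sources used here. *Ahr* and *Tiparp* overlap genes on the opposite strand and *Arnt* a pseudogene on its own strand, whose counts were at most 26 where listed.

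Counts were scaled with TMM factors (0.949 to 1.08), filtered with filterByExpr and tested with edgeR 4.0.16 (quasi-likelihood, genotype alone, two-sided, Benjamini-Hochberg over 14828 genes, threshold 0.05), in R 4.3.3. TPM values were tested with limma 3.58.1 on log2(TPM + 1) for genes at 1 TPM or more in 3 libraries. Fold changes on that scale understate low genes. Intervals are 95%. Each library was counted once. Libraries of one genotype differed by more than counting noise (chi-square of 50.1 to 189 per degree of freedom), which does not tell whether they came from separate cultures. If the clones were not separate cultures, p-values cover technical spread only. Of the per-sample count columns, 0 were unused.

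The members, gene lists and tests were chosen with earlier results of these data known. Genes named were the members, the list genes called by edgeR, the receptor complex list, the called P450 genes, the 5 genes nearest *Cyp1b1*, and some uncalled list genes and markers chosen after their values were seen. A gene of the receptor complex list is not reported here by name. Alternatives were DESeq2 1.42.0, RLE factors, library totals, no filter or at least 10 counts in 3 libraries, a replicate block, chromosome or 10 Mb window medians subtracted (windows with at least 15 genes), another pseudocount (0.1) and leaving out each library. The window alternative was added after the data were seen. Scripts were tested on simulated data.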

Additional observations from a re-analysis of the deposited data

How the results depend on the processing

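Of 14 alternative count analyses, *Nqo1* kept its direction and call in 14, *Arnt* and *Tiparp* stayed without a call in 14, and *Cyp1b1*, with no test, ranged from 2.42 (10 Mb window median subtracted) to 2.89. In TPM, with a pseudocount of 0.1, *Cyp1b1* was at 2.69 and *Nqo1* at 1.86. *Ahr* fell short of the threshold with the chromosome median subtracted (0.85) and without WT1, WT2 or WT3 (1.14 to 1.31), and in TPM with no filter (0.88) and without KO3, WT1, WT2 or WT3 (0.84 to 0.91). Over all leave-one-out runs, those that kept the call included, *Ahr* was at 0.84 to 1.44 in counts and 0.68 to 1.10 in TPM. *Ahrr* changed sign with library totals (0.075) and in leave-one-out (-0.40 to 0.42). *Cul4b* changed sign with DESeq2 (-0.017), RLE factors (-0.0067), no filter (-0.017) and chromosome (-0.056) or window (-0.046) medians subtracted, and in leave-one-out (-0.043 to 0.064). Over all genes the number called was 1796 higher and 1565 lower, and 460 to 2381 and 473 to 2331 in leave-one-out. Library totals shifted the median by 0.12 and gave 2295 higher and 1174 lower, so that 66.2% of calls were higher instead of 53.4%. List genes called higher were 22, with 14 under the replicate block and 4 to 26 in leave-one-out, and those called lower were 11, with 6 under library totals, 7 under the replicate block and 5 to 13 in leave-one-out. The cause of these shifts was not tested, although leaving out a library also leaves fewer samples. The longer receptor motif was in 1 member window instead of 5. Of 40 named list and P450 genes in 560 analyses, 427 kept direction and side of the threshold, 125 lost a call and 8 changed sign. Library totals ended the calls of *Bach1*, *Blvrb*, *Mafg*, *Parp6* and *Tnks* (adjusted p 0.0579 to 0.0939 by edgeR). Subtracting chromosome medians ended those of *Ephx1*, *Mafg*, *Ncoa3*, *Parp6* and *Src* (0.0559 to 0.102). Subtracting window medians ended those of *Arntl2*, *Bach1*, *Cyb5b*, *Gstm1*, *Gstt1*, *Ncoa3*, *Parp6* and *Tnks* (0.0514 to 0.723). With no filter, those of *Arntl2* and *Gstt1* were lost (0.0566 and 0.0563).

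The replicate numbers do not pair the libraries: deviations of same-numbered KO and WT libraries correlated at 0.13, -0.11 and 0.01, and KO1 alone correlated best with its own number. With a replicate block 1309 genes were called higher and 1211 lower, *Nqo1* was at 1.92 (adjusted p = 0.0255 by edgeR) and *Ahr* at 1.17 (0.0258), and no member's call changed. The calls of 12 list genes were lost under it (*Arntl2*, *Bach1*, *Cyb5b*, *Ep300*, *Ephx1*, *Gsta4*, *Gstm1*, *Gstt1*, *Mafg*, *Ncoa3*, *Parp6* and *Tnks*, adjusted p 0.0515 to 0.0911 by edgeR). Depth limits *Ahrr* and *Cyp1a1*.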
